A study of Mus musculus with 6 samples.

Results

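Myelin structural and lipid genes were described as a group of 9 genes: the structural and membrane protein genes Mbp, Cnp, Mag, Mog, Mobp, Mal, Cldn11 and Gjb1, and the lipid enzyme gene Ugt8a. They were chosen by name as genes of the myelin sheath, and all 9 were found, out of 19937 genes measured by a probe set with a single gene. Each of the 9 is measured by 1 such probe set. Expression was measured on Affymetrix whole-transcript arrays in neural stem cells and neural progenitors from the brains of mice of 8 weeks of the 129SV strain, with 1 array per culture. The Sirt1 inactive cultures (3) came from NestinCre;Sirt1lox/lox mice, in which Cre recombinase under the Nestin promoter acts in neural stem and progenitor cells, and the labels describe them as lacking active SIRT1, an NAD-dependent deacetylase. The control cultures (3) came from Sirt1lox/lox mice, which carry the same floxed alleles and no Cre, so that effects of Cre and of the missing SIRT1 activity cannot be told apart. Cells of both groups were grown as neurospheres with EGF and bFGF, replated on coated plates at equal density and collected while proliferating at passage 2. The sample titles call the cultures biological replicates, and the sources used here do not say how many mice gave each.

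Myelin is the compacted membrane that oligodendrocytes wrap around axons in the brain and spinal cord, made of a few abundant proteins and of lipids rich in galactosylceramide and cholesterol. Its genes are switched on late, when progenitors leave the cell cycle and differentiate, under transcription factors that include SOX10 and MYRF. Cultures kept in EGF and bFGF are held in proliferation, so that these genes are read here in progenitors and in whatever more mature cells the cultures contain.

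Promoter sequences were looked up first, because structural myelin genes are known targets of those factors; the motifs were chosen after the windows were at hand. RefSeq promoter windows of build GRCm38.p6 were found for 8 of the 9 genes, Mbp being the other. The 250 bases before each listed start were searched on both strands for the MYRF motif (CTGGCAC or CTGGTAC) and for the core letters bound by SOX proteins (ACAAAG), motifs that do not overlap each other. The MYRF letters stood before Cnp, Mag and Mog, that is in 3 of the 8 genes, and in 6.79% of all 27025 genes with such windows. The SOX letters stood in windows of 4 of the 8 genes, Cnp, Gjb1, Mag and Mobp, and in 18.6% of all genes. Mobp had 6 copies in its window, which is the highest number in any of the 32851 windows, of which 7 held 4 or more. The sequences of these genes are shown with the motif letters in capitals, for Cnp at chr11:100574689-100574938 on the plus strand, for Mag at chr7:30914923-30915172 on the minus strand, for Mog at chr17:37023399-37023648 on the minus strand and for Mobp at chr9:120149492-120149741 on the plus strand, each 5′ to 3′ along its gene.
Cnp: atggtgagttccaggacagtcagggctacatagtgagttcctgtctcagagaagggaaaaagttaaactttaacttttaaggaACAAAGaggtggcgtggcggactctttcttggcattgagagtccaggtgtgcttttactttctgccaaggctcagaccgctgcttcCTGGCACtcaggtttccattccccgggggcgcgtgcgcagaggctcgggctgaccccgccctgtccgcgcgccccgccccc
Mag: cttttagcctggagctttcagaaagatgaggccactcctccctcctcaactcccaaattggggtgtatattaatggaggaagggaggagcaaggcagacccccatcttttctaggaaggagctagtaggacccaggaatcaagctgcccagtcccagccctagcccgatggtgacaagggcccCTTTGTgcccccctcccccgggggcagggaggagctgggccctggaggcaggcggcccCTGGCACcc
Mog: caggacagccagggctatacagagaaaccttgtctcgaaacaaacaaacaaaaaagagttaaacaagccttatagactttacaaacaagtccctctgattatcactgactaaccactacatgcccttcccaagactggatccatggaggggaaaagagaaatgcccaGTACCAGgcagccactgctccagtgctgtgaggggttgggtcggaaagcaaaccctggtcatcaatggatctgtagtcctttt
Mobp: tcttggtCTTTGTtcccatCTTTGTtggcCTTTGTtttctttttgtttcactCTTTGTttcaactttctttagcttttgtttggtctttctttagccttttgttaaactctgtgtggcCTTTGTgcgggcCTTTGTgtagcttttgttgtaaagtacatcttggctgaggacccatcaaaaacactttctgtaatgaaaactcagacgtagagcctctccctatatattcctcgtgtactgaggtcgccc
The 6 copies before Mobp read along the opposite strand, as ctttgt. In Cnp the MYRF letters began 81 bases before the start and in Mog, on the opposite strand, 83 bases before it. Mag has 3 listed starts; the sequence shown precedes the most upstream of them, 9 bases before which the MYRF letters began. These matches describe letters in a window and were not tested as binding sites.

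Values are the log2 RMA values deposited by the authors, a scale on which 1 unit is a doubling, and differences are Sirt1 inactive minus control. Array medians lay between 7.36 and 7.39 and lower quartiles between 5.78 and 5.83. The array farthest from the rest was control replicate 3: its probe sets differed from the average of the remaining arrays by a median of 0.125, and those of the next, Sirt1 inactive replicate 2, by 0.0996. The probe set of Sirt1 read 8.26, 8.33 and 8.25 in Sirt1 inactive cultures, against 8.73, 8.78 and 8.55 in control cultures, a difference of -0.41 (SE 0.08) that did not pass over all probe sets (limma, adjusted p = 0.959). Whether its probes lie in the floxed part of the gene is not known here, so that it gives no full check of the labels. Neural stem cell genes were bright in both groups: Nes, an intermediate filament of neural progenitors, lay between 11.6 and 11.7 in Sirt1 inactive cultures and between 11.5 and 11.7 in control cultures, and Sox2, a stem cell transcription factor, lay between 11.6 and 11.7 in Sirt1 inactive cultures and between 11.6 and 11.8 in control cultures. Among 22961 tested probe sets, 0 passed at an adjusted p of 0.05, with or without the replicate number as a block (0% of those tested), while 830 had an unadjusted p under 0.05 (3.61%), and 1741 (7.58%) with the block.

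All 9 myelin genes had a lower mean in the Sirt1 inactive cultures than in control cultures, by small amounts, and 0 of 9 passed the test (limma, adjusted p under 0.05, against 0% of all probe sets); 0 of 9 had an unadjusted p under 0.05, against 3.61% of all. The differences ran from -0.20 for Mog, a protein of the outer myelin surface, to -0.02 for Ugt8a, which makes galactosylceramide, so that levels were 0.870 to 0.984 times those of control. Their median was -0.10, against -0.02 for all tested probe sets. The count of 9 of 9 below 0 stands beside 60.1% of all tested probe sets below 0. For 8 of the 9 the adjusted p was 0.959 and for Ugt8a it was 0.980 (limma, Benjamini-Hochberg over all probe sets). The groups did not overlap for 1 gene, the connexin gene Gjb1, which was lower; 6.71% of all probe sets did not overlap in that direction. In same-numbered arrays Cnp, Mog, Cldn11 and Gjb1 were lower in 3 of 3 pairs, 4 of the 9 genes against 20.7% of all probe sets. For Mog and Cldn11 this count includes a near tie, -0.00045 for number 3 of Mog and -0.0020 for number 1 of Cldn11. The 95% interval of each of the 9 included 0, and a p that misses the threshold does not show equal levels. The data come from whole cultures, in which fewer cells of a type and less RNA per cell cannot be told apart.

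**Figure D1:**
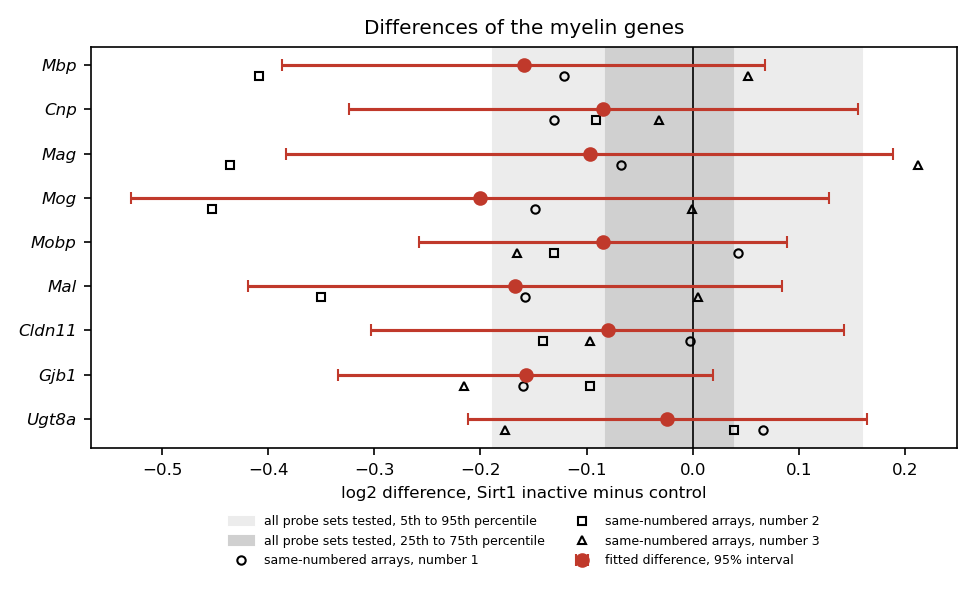
Log2 difference (Sirt1 inactive minus control, horizontal axis) of the 9 myelin genes with the 95% interval of the limma fit (3 arrays per group); open symbols are the differences of same-numbered arrays, and grey bands show the spread of all tested probe sets. All 9 fitted differences lie below 0 and all 9 intervals reach across it.

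Mbp encodes myelin basic protein, which holds the cytoplasmic faces of the membrane together. Its values were 9.98, 9.83 and 9.95 in Sirt1 inactive cultures, against 10.10, 10.23 and 9.90 in control cultures. Control replicates 1 and 2 were above every Sirt1 inactive culture, while control replicate 3 lay among them, so the groups overlapped. The means were 9.92 ± 0.08 in Sirt1 inactive and 10.08 ± 0.17 in control cultures (SD, n = 3 each), a difference of -0.16 with a limma interval of -0.39 to 0.07. As a level this was 0.896 times control, with an interval of 0.765 to 1.05.

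Cnp encodes CNPase, an enzyme and scaffold of the cytoplasmic channels of myelin that is already made by progenitors. It read 11.66, 11.47 and 11.45 in Sirt1 inactive cultures, against 11.79, 11.56 and 11.48 in control cultures. In both groups replicate 1 was the highest and replicate 3 the lowest, and each Sirt1 inactive culture was below the control culture of its own number. The difference was -0.08 (SE 0.10), with a block for the number -0.08 (SE 0.06), and neither fit passed (limma, adjusted p = 0.959 and 0.717). Mobp encodes a small basic protein of the same cytoplasmic face. It read 7.86, 7.67 and 7.63 in Sirt1 inactive cultures, against 7.82, 7.81 and 7.80 in control cultures. The control values lay within 0.02 of each other and the Sirt1 inactive values within 0.22, with replicate 1 above and replicates 2 and 3 below all controls. The difference of means was -0.08 (limma, SE 0.07, 95% interval -0.26 to 0.09).

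Mag and Mog are surface proteins of the immunoglobulin superfamily. Mag, the myelin-associated glycoprotein of the membrane facing the axon, read 9.02, 8.77 and 9.01 in Sirt1 inactive cultures, against 9.09, 9.21 and 8.80 in control cultures. The lowest Sirt1 inactive culture and the lowest control culture were nearly equal, and the groups overlapped. The difference was -0.10 (limma, 95% interval -0.38 to 0.19). It was -0.44 between the arrays of number 2 and 0.21 between those of number 3.

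Mog, the oligodendrocyte glycoprotein that appears late in differentiation, read 8.94, 8.51 and 8.69 in Sirt1 inactive cultures, against 9.09, 8.97 and 8.69 in control cultures. Sirt1 inactive replicate 2 was the lowest of the 6 arrays and control replicate 1 the highest, and the replicates of number 3 were level. Mog had the largest difference of the 9, at -0.20 (limma, SE 0.14, 95% interval -0.53 to 0.13), and also the widest interval. Its SD was 0.22 in Sirt1 inactive cultures and 0.21 in control cultures (n = 3 each), which is as large as the difference. The replicate block left the call as it was (limma, adjusted p = 0.660).

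**Figure D2:**
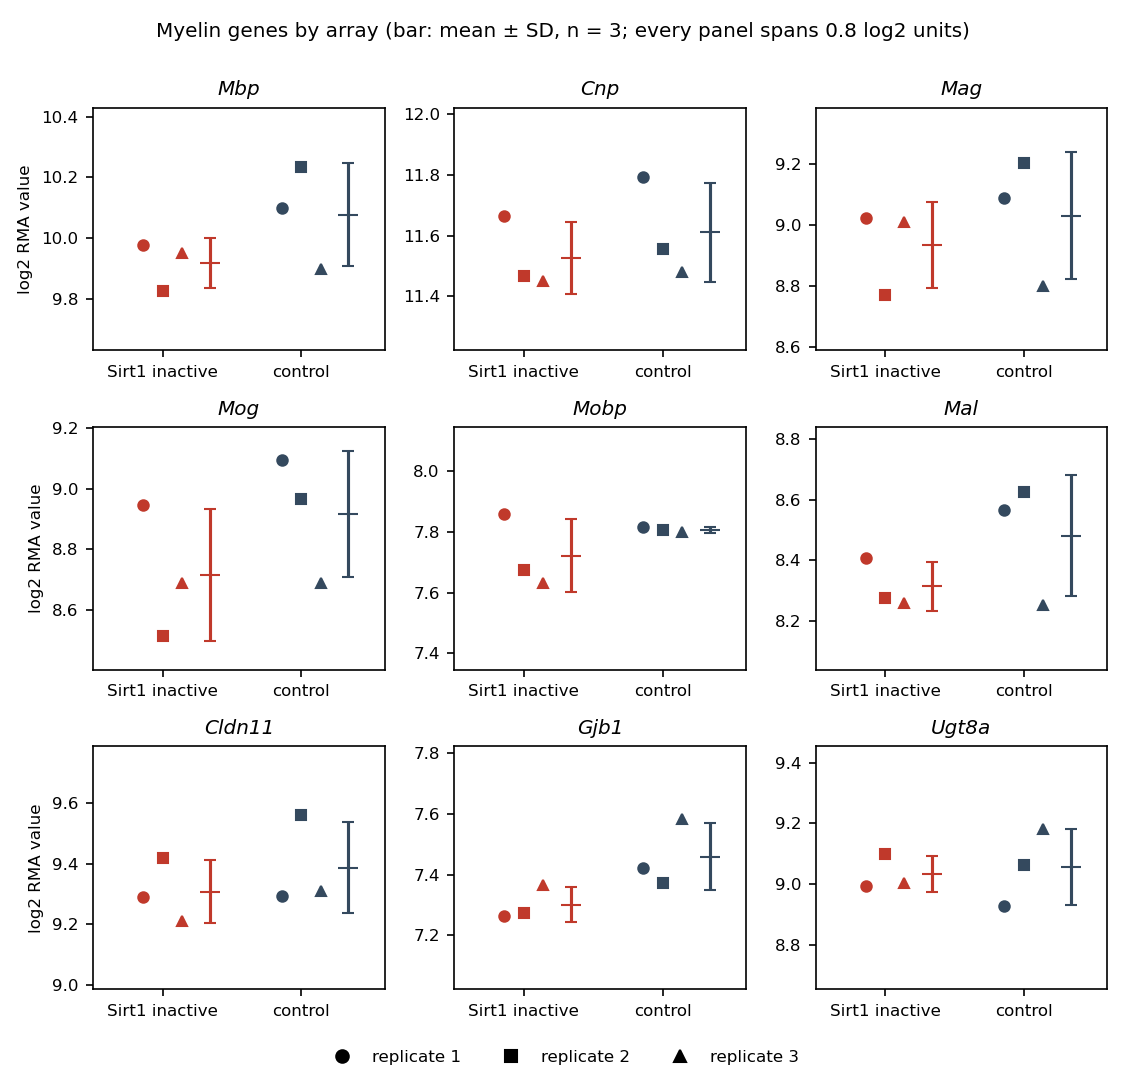
Log2 RMA value (vertical axes, each spanning 0.8 units) of the 9 myelin genes in every Sirt1 inactive and control culture, with the mean ± SD of 3 arrays beside the points. Gjb1 is the gene whose groups do not overlap, and in Mobp the 3 control values lie within 0.02 of each other.

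Mal, Cldn11 and Gjb1 encode proteins with several membrane-spanning stretches. Mal, a proteolipid that sorts glycolipid-rich membrane, read 8.41, 8.27 and 8.26 in Sirt1 inactive cultures, against 8.57, 8.63 and 8.25 in control cultures. Control replicates 1 and 2 were above every Sirt1 inactive culture, as for Mbp; control replicate 3 was the lowest of the 6 arrays, and the groups overlapped. The difference was -0.17 (limma, SE 0.11). Cldn11, the claudin of the tight junctions between myelin layers, read 9.29, 9.42 and 9.21 in Sirt1 inactive cultures, against 9.29, 9.56 and 9.31 in control cultures. Replicate 2 was the highest in both groups, and the groups overlapped. The difference was -0.08 (limma, SE 0.09), and each culture was below the control of its number, by 0.002 for number 1.

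Gjb1 encodes a gap junction protein that joins layers of myelin in oligodendrocytes and Schwann cells. It read 7.26, 7.27 and 7.37 in Sirt1 inactive cultures, against 7.42, 7.37 and 7.58 in control cultures. The groups touched without overlapping: the highest Sirt1 inactive value, 7.367, was below the lowest control value, 7.371. The means were 7.30 ± 0.06 in Sirt1 inactive and 7.46 ± 0.11 in control cultures (SD, n = 3 each), a difference of -0.16 (SE 0.08, 95% interval -0.33 to 0.02). Its unadjusted limma p of 0.073 was the smallest of the 9 genes, and its adjusted p was 0.959. With the replicate block the unadjusted p was 0.037 and the adjusted p 0.656, and a two-sided exact permutation p was 0.1, which is the lower limit for 3 arrays against 3. The values of Gjb1 lie around the array medians, and those of Mobp a little above. These medians cover all probe sets, also those without a gene. Among the tested probe sets both genes lie below the median brightness. RMA values carry no detection call, so it is not known whether either probe set exceeds background.

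Ugt8a encodes the galactosyltransferase that makes galactosylceramide, the most characteristic lipid of myelin. It read 8.99, 9.10 and 9.004 in Sirt1 inactive cultures, against 8.93, 9.06 and 9.18 in control cultures. Control replicate 1 was the lowest of the 6 arrays and control replicate 3 the highest, whereas control replicate 3 was below control replicate 1 for Cnp, Mog and Mal. The difference was -0.02 (limma, SE 0.08, 95% interval -0.21 to 0.16), and 1 of 3 same-numbered pairs was lower.

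Of 25 other genes listed for myelin lipids, 7 were below 0 (28%, against 60.1% of all probe sets) and 18 above. Their median was 0.03, and 0 passed in either direction. The list also holds Plp2, a membrane protein gene rather than one of lipid metabolism, which had the largest difference of the 25, 0.37. The brightest of its 3 probe sets was used. It read 12.10, 12.09 and 11.74 in Sirt1 inactive cultures, against 12.03, 11.84 and 10.95 in control replicates 1, 2 and 3. The median of the list was -0.00035 without control replicate 3. The mean level of the list was 10.09 to 10.11 in Sirt1 inactive cultures, against 10.14, 10.08 and 9.95 in control replicates 1, 2 and 3. Fa2h, which hydroxylates the fatty acids of galactosylceramide, read 7.74, 7.61 and 7.52 in Sirt1 inactive cultures, against 7.67, 7.64 and 7.49 in control cultures, a difference of 0.02. Gal3st1, which sulfates galactosylceramide, differed by -0.13, and Galc, which degrades it, by 0.04. The smallest unadjusted p of this list belonged to Agps, an enzyme of plasmalogen synthesis, at 9.22, 9.38 and 9.22 in Sirt1 inactive cultures and 9.20, 9.10 and 8.93 in control cultures (difference 0.20; limma, adjusted p = 0.959). Elovl1, which makes very long fatty acids, differed by 0.12 and Arsa, the sulfatide-degrading arylsulfatase, by 0.14.

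Across arrays the genes fell into different orders. Control replicate 3 was the lowest control culture for 6 of the 9 genes, namely Mbp, Cnp, Mag, Mog, Mobp and Mal, and the highest for Gjb1 and Ugt8a. Sirt1 inactive replicate 1 was the highest of its group for the same 6 genes. Control replicates 1 and 2 each had 7 of the 9 genes above the gene's own mean over 6 arrays, control replicate 3 had 3, and Sirt1 inactive replicates 1, 2 and 3 had 5, 2 and 1. The 2 arrays with most myelin genes above the mean were thus both controls, and control replicate 3 fell within the range of the Sirt1 inactive arrays in this count.

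**Figure D3:**
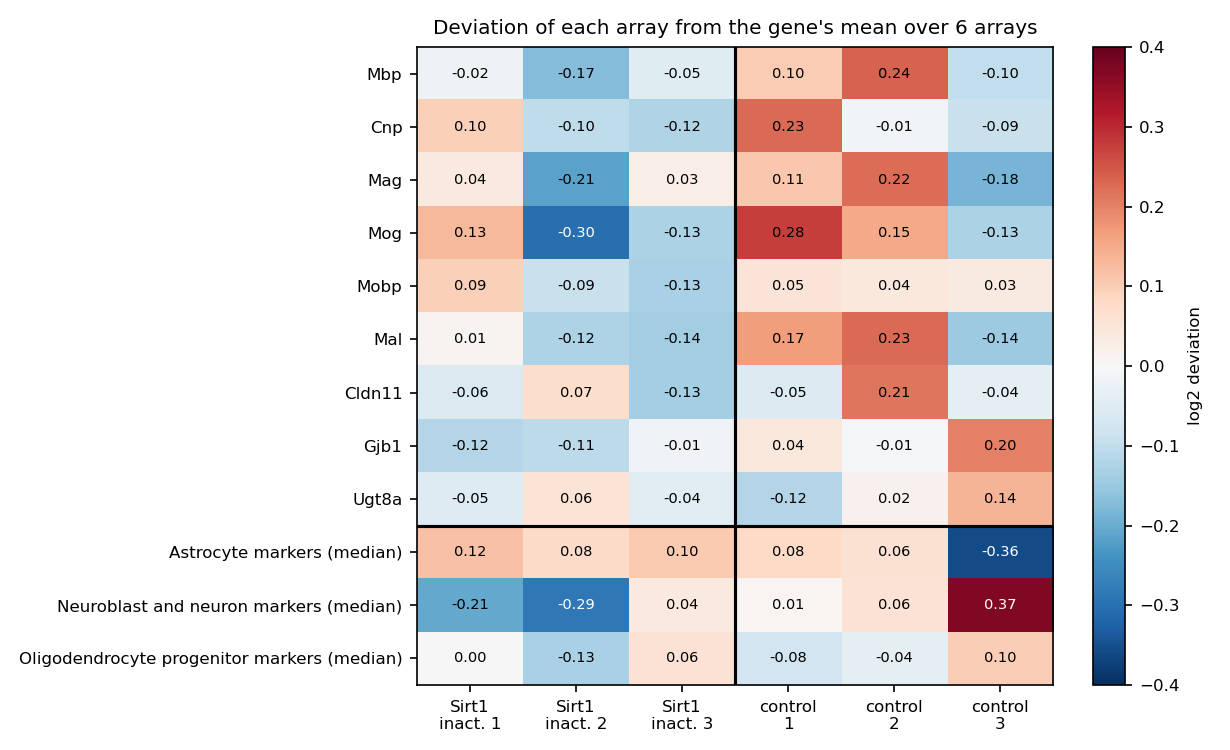
Deviation of each array from the mean over 6 arrays, in log2 units, for the 9 myelin genes and, below the line, the median deviation of 3 marker lists; Sirt1 inactive cultures are left of the vertical line. Control replicate 3 is below the mean for Mbp, Cnp, Mag, Mog, Mal and Cldn11 and above it for Mobp, Gjb1 and Ugt8a, with astrocyte markers at -0.36 and neuronal markers at 0.37.

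Marker lists of astrocytes, of mural cells and fibroblasts, and of neuroblasts and neurons also stood apart in control replicate 3. The mean level of 7 mural cell and fibroblast markers was 7.70 to 7.95 in Sirt1 inactive cultures. It was 7.81, 8.01 and 7.29 in control replicates 1, 2 and 3, with 4 of 7 differences above 0 and 3 below. The mean level of 11 astrocyte markers was 10.41 to 10.49 in Sirt1 inactive cultures, against 10.42, 10.44 and 9.74 in control replicates 1, 2 and 3, and 9 of 11 differences were above 0. The mean level of 9 neuroblast and neuron markers was 7.67 to 7.97 in Sirt1 inactive cultures, against 7.99, 8.03 and 8.28 in the controls, with 9 of 9 below 0. For 10 microglia and macrophage markers it was 6.71 to 6.73 in Sirt1 inactive cultures, against 6.77 to 6.84 in control cultures. Of these 10 differences 9 were below 0, and of all tested probe sets 60.1% were. The mean level of the microglia list lay below the array medians of 7.36 to 7.39 in every culture, and RMA values carry no detection call. No marker of these lists stands at 0, since RMA gives every probe set a value. The part of these lists in the differences of the myelin genes was not tested. Schwann cells also make several of the 9 proteins: of 6 measured Schwann cell markers 5 were below 0, and their mean level was 7.66 to 7.73 in Sirt1 inactive cultures and 7.64 to 7.74 in control cultures.

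Without control replicate 3 the differences of Mbp, Mag, Mog and Mal were -0.25, -0.21, -0.31 and -0.28. Of these, Mbp, Mog and Mal had an unadjusted p under 0.05 (0.018, 0.048 and 0.0074), and the lowest adjusted p of the 9 genes was 0.9996 in that limma fit. The share of all probe sets under 0.05 was not counted for it. Leaving out any other single array gave 0 of 9 under 0.05. With control replicate 3 left out, Ugt8a was at 0.04 and Gjb1 at -0.10. Mag came close to 0 when single arrays were left out, at -0.010 when control replicate 2 was omitted and -0.015 when Sirt1 inactive replicate 2 was. In a fit chosen after seeing the data, on replicates 1 and 2 of each group with the number as a block, Mbp was -0.27, Mag -0.25, Mog -0.30 and Mal -0.25, with adjusted p = 0.463, 0.557, 0.405 and 0.413 (limma). In that fit 19 probe sets passed, and 0 of the 9 genes.

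**Figure D4:**
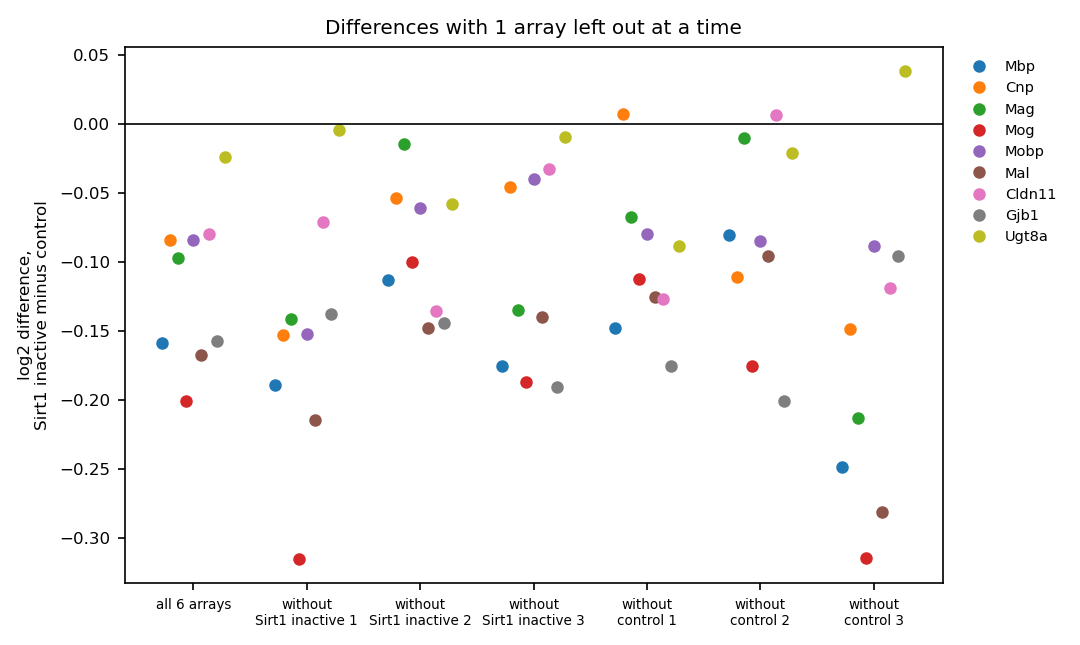
Log2 difference (Sirt1 inactive minus control, vertical axis) of each myelin gene with all 6 arrays and with 1 array left out at a time (horizontal axis). Mog spreads from -0.32 to -0.10, and Ugt8a, Cnp and Cldn11 each cross 0 once.

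Other genes of the myelin sheath were set beside the 9. Of 39 listed, 35 were measured by a probe set with a single gene, 20 below 0 (57.1%, against 60.1% of all probe sets) and 15 above, and 0 passed. Their median was -0.03, but 0.03 without control replicate 1 and also when dim probe sets were left out. Gjc3, a connexin of oligodendrocyte lineage cells in mice, read 9.75, 9.46 and 9.41 in Sirt1 inactive cultures, against 9.34, 9.31 and 8.79 in control cultures. Its groups did not overlap, with higher values in Sirt1 inactive cultures, a difference of 0.39 (SE 0.16; limma, adjusted p = 0.959). Car2, a carbonic anhydrase of oligodendrocytes and other glia, also had groups that did not overlap, at 10.87, 10.72 and 10.85 in Sirt1 inactive cultures against 10.65, 10.66 and 10.16 in control cultures. These 2 were the genes of the 35 without overlap, both higher, where 9.33% of all probe sets had no overlap in either direction. Kif5a, a kinesin heavy chain, differed by -0.17. Opalin and Ermn, membrane and cytoskeletal proteins of mature oligodendrocytes, differed by -0.03 and -0.06, and their values lay between 5.79 and 6.90, below the array medians.

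Transcription factors and other regulators of myelin genes were below 0 for 16 of 19 measured (84.2%, against 60.1% of all probe sets), with a median of -0.09 and 0 that passed. Myrf, the factor whose letters stand before Cnp, Mag and Mog, read 7.97, 7.85 and 7.99 in Sirt1 inactive cultures, against 7.98, 8.02 and 8.08 in control cultures. Those groups overlapped and differed by -0.09 (limma, SE 0.07, adjusted p = 0.959). Sox10 lay above 0, at 8.84, 8.63 and 8.54 in Sirt1 inactive cultures against 8.50, 8.44 and 8.21 in control cultures, with no overlap and a difference of 0.28 (limma, SE 0.11, adjusted p = 0.959). Lingo1, a membrane protein that restrains oligodendrocyte differentiation, differed by -0.28 and Zeb2, a repressor of inhibitory signals in the lineage, by -0.13, both without overlap. Of the 19 regulators, 1 without overlap was higher and 2 were lower, against 9.33% of all probe sets in either direction. Olig1, Olig2 and Nkx2-2, factors of the lineage, differed by -0.07, -0.15 and -0.15. Of 14 progenitor markers 9 were below 0 (64.3%, against 60.1% of all probe sets) and 5 above, and 0 passed. The range was -0.39 (Rlbp1) to 0.79 (Pdgfra). An unadjusted limma p under 0.05 was found for 5 of the 14, against 3.61% of all probe sets. Groups did not overlap for 4 that were higher and 1 that was lower, against 9.33% of all probe sets in either direction. The median of the 14 was -0.04 with all arrays and 0.09 without control replicate 3.

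**Figure D5:**
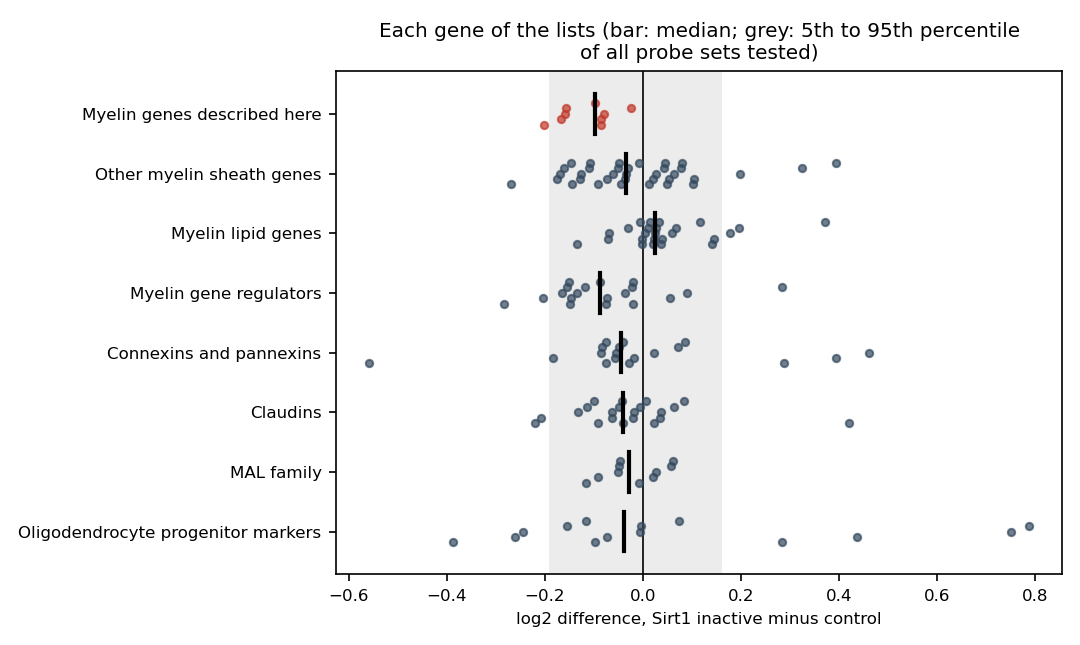
Log2 difference (Sirt1 inactive minus control, horizontal axis) of every measured gene of the 9 myelin genes and of 7 other lists, with a black bar at each median and the 5th to 95th percentile of all tested probe sets in grey. The 9 myelin genes lie between -0.20 and -0.02, while the lists of connexins and of progenitor markers reach far to both sides.

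In the protein families of the membrane genes 0 members passed. The shares below 0 were 66.7% of connexins and pannexins, 66.7% of claudins and 60% of the relatives of Mal, close to the 60.1% of all probe sets. Of 18 measured connexins and pannexins, 12 were below 0, with a median of -0.05. Gjd2, a connexin of neurons, had the largest difference, -0.56, with 6.55, 6.41 and 6.54 in Sirt1 inactive cultures against 6.82, 6.90 and 7.45 in control cultures (limma, adjusted p = 0.959). Gjc1, a connexin of many tissues, differed by 0.29. Of 21 other claudins 14 were below 0, with a median of -0.04, Cldn17 and Cldn6 at -0.21 and -0.22 and Cldn1 at 0.42. Of 10 relatives of Mal, 6 were below 0, with a median of -0.03 and a range from -0.11 to 0.06; Mal2 differed by -0.09, Cmtm3 by -0.11 and Cmtm4 by -0.05. Mal itself, at -0.17, lay below each of them; the difference between Mal and its relatives was not tested.

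The gene whose values followed the mean standardised profile of the 9 most closely over the 6 arrays was Cntn2, a contactin of axons and of the myelin next to the node, with a Pearson correlation of 0.993. It read 7.79, 7.71 and 7.71 in Sirt1 inactive cultures, against 7.87, 7.93 and 7.79 in control cultures, a difference of -0.13 (limma, SE 0.06, adjusted p = 0.959). Like Mbp and Mal, it was highest in control replicate 2, and control replicate 3 was close to Sirt1 inactive replicate 1. Slc17a3, a transporter gene, and Hoatz followed, at 0.987 and 0.986; Hoatz lay between 5.08 and 5.23, below the lower quartile of the arrays. These correlations are descriptions over 6 arrays, picked as the highest of 19937 genes. Among the 9 themselves, Mal (0.917), Mbp (0.899) and Mog (0.860) were closest to the mean profile. Farthest from it were Gjb1 (0.217) and Ugt8a (-0.256). Each of the 9 enters that mean, which raises its own correlation.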

How the data were processed

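Each array gave 1 value per probe set, in log2 units, which the authors computed with RMA, as the submitters' processing notes name it. RMA adjusts background, normalizes between arrays and summarises probes. Its version and the build behind the probe sets: not given in the sources used here. GEO's platform annotation pairs 22961 of 34760 probe sets with a gene, 21640 with 1 gene and 1321 with several; 11799 have none. Of the single-gene probe sets, 21553 were found in RefSeq's gene table, and 0 symbols changed.

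The deposited log2 values were fitted without further normalization with limma 3.58.1 in R 4.3.3 over 6 arrays, with genotype as the term, two-sided and adjusted by Benjamini-Hochberg over 22961 probe sets at 0.05. Adjusted p-values in the text are limma's. A difference had a median SE of 0.080 and a median half-width of its 95% interval of 0.19; the number of arrays limits this precision. Deviations from the group means correlated between arrays of the same number in the titles (0.47, 0.36 and 0.27 over probe sets). Between arrays of different numbers the correlations ran from -0.32 to -0.02. Deviations within a group cancel, so that positive values come with negative ones. No label says what a number shares. Same-numbered pairs are therefore given as a description, and the number is a block in an alternative fit only. The main fit has no block. The fit was tested on simulated data whose added differences were larger than those of the myelin genes, so it does not bear on differences of their size.

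The members, companion lists and motifs were chosen with earlier results of these data known. All 9 members are named, with the 3 genes of smallest unadjusted p in each of the 6 companion lists, any gene of the lipid and regulator lists, and the 3 genes most like the members' profile. Marker lists are given by counts and levels; Nes, Sox2, Opalin, Ermn, Rlbp1 and Pdgfra were chosen after their values were seen. There were 0 value columns of other samples. Alternatives were the replicate block, other normalizations, filters, array weights and priors, and leaving out each array.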

Additional observations from a re-analysis of the deposited data

How the results depend on the processing

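Of 133 alternative values of the 9 genes, 128 kept their sign and their side of the threshold, and the 5 others changed sign near 0. Ugt8a was 0.00074 with array medians subtracted and 0.053 on replicates 1 and 2 with the replicate block. When 1 array at a time was left out, Ugt8a ranged from -0.088 to 0.038 (above 0 without control replicate 3), Cnp from -0.15 to 0.0076 (above 0 without control replicate 1) and Cldn11 from -0.14 to 0.0065 (above 0 without control replicate 2). The cause was not tested. The replicate block changed no call: the smallest adjusted p (limma) was 0.510 over all probe sets and 0.656 among the 9 genes. Their median stayed at -0.10, which a block cannot change when each number has 1 array per group. That median was -0.18 with array weights and -0.07 with array medians subtracted. Over all these fits the lowest adjusted p of the 9 genes was 0.405, for Mog. The count of probe sets past the threshold was 0 under 13 of 14 alternatives and 19 on replicates 1 and 2 with the block. Mobp and Gjb1 did not enter the fit when probe sets below the median brightness were left out. Of the lists in the report, medians changed sign for the other sheath genes (0.035 without control replicate 1 and 0.027 without dim probe sets), progenitor markers (0.094 without control replicate 3, 0.035 with array weights and 0.015 on replicates 1 and 2 with the block), lipid genes (-0.00035 without control replicate 3), claudins (0.011 without dim probe sets) and Schwann cell markers (0.10 without dim probe sets and 0.0084 on replicates 1 and 2 with the block). The neural stem cell markers, with a median near 0, also changed sign, down to -0.011 with array weights. So did the mural cell and fibroblast markers, from a median of 0.027 down to -0.11 on replicates 1 and 2 with the block. Groups of 3 arrays are too small for a test of single outlying arrays.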
